A study of Mus musculus with 10 samples.

Results

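The genes described here encode the subunits of the proteasome and the proteins that assemble and activate it, measured by RNA-seq in mpkCCD cells with and without an intact Camk2d gene. Members were taken by name, as the symbols that begin with Psma, Psmb, Psmc, Psmd, Psme or Psmg and a digit, pseudogenes and antisense transcripts left out, and by a mean of at least 1 TPM over the 10 samples. Of 50 genes that carried such a name, 47 met the level rule, out of 55414 genes in the table and 13047 with a mean of at least 1 TPM. TPM values divide reads by transcript length and sum to the same total in every sample, so that levels of different genes can be set side by side. Of the 47 members, 2 only borrow the name of a subunit: Psmc3ip acts in meiotic recombination and Psme3ip1 binds the activator PSME3. They were counted as members and described apart from the other 45.

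mpkCCD cells are an immortalized line of the mouse cortical collecting duct (C57BL/6 background, per the labels). All 10 samples received the vasopressin analog dDAVP at 0.1 nM for 7 days, so no untreated cells enter any comparison. The Camk2d-intact group had 5 samples of 3 cell lines, namely the parental wild-type line (1 sample) and 2 clones that went through the CRISPR-Cas9 transfection and kept Camk2d (intact clone 1 and intact clone 2, with 2 samples each). The Camk2d-KO group had 5 clones with 1 sample each, KO clones 1 and 2 made with a guide RNA for exon 8 and KO clones 3 to 5 with a guide RNA for exon 9, if the clone numbers of the labels are those of the study's list of mutations. Each clone grew from a single sorted cell, so that in a single clone the clone's own level and the loss of Camk2d cannot be told apart. Whether the paired samples of an intact clone were separate cultures is not stated in the sources used here, so p-values measure the spread between these samples. In the sentences that follow, 5 intact values are given in the order parental line, intact clone 1 (2 samples) and intact clone 2 (2 samples), and 5 KO values in the order of KO clones 1 to 5.

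The proteasome is the protease that degrades proteins tagged with ubiquitin. Its 20S core is a stack of alpha and beta rings, and the beta subunits encoded by Psmb5, Psmb6 and Psmb7 carry the active sites. The 19S regulatory particle caps the core: a ring of ATPases (Psmc genes) with non-ATPase partners forms the base that unfolds the substrate, and the lid holds the deubiquitinase PSMD14. Interferon and inflammatory signals replace the active beta subunits by PSMB8, PSMB9 and PSMB10, which gives the immunoproteasome, and induce the PA28 activator made from PSME1 and PSME2. In many cells the subunit genes are raised together by the transcription factor NFE2L1 when proteasome activity is low, through antioxidant response elements in their promoters.

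The sequence in front of 3 core subunit genes, picked as examples, is printed below. Psmb6 and Psmb5 hold TGACNNNGC, the core of an antioxidant response element, and Psmb9 lies head to head with Tap1, whose product feeds peptides into the antigen presentation pathway. Sequences are the 250 bases before the annotated start of the gene in RefSeq on GRCm38.p6, read 5′ to 3′ on the strand of the gene. In Psmb6 (chr11:70525107-70525356, plus strand) and Psmb5 (chr14:54617996-54618245, minus strand) capitals mark TGACNNNGC, which begins 9 bases before the start of Psmb6 and 47 bases before the start of Psmb5. In Psmb9 (chr17:34187331-34187580, minus strand) capitals mark CCAAT on the opposite strand.

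Psmb6: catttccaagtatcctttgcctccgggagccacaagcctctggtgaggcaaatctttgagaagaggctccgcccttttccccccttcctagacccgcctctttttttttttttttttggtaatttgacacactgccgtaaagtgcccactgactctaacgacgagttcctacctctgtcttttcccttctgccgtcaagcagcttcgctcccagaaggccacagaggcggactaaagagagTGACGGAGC
Psmb5: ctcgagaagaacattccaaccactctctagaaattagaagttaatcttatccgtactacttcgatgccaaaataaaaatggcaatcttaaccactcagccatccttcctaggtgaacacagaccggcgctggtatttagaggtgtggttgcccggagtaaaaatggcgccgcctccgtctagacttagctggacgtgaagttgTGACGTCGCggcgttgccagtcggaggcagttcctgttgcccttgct
Psmb9: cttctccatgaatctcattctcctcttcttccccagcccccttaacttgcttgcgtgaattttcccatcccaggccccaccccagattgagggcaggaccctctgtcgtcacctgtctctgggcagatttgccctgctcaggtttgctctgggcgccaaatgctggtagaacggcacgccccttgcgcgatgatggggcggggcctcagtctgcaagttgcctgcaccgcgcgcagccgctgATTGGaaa

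Promoters of 40 of the 47 members were found by symbol among 27025 genes, and 3 motifs were searched on both strands of the same 250 bases. TGACNNNGC was present in 5 of the 40 (Psmb5, Psmb6, Psmc6, Psmd9 and Psmd12) and in 10.1% of all promoters. CCAAT was present in 14 of the 40 and in 34.5% of all promoters. CCGGAAG, the letters bound by ETS factors, was present in 12 of the 40, among them Psmc1, Psmc2, Psmd2, Psmd11 and Psmg1, and in 7.05% of all promoters. In the same annotation 225 bases separate the starts of Psmb9 and Tap1, which are read in opposite directions from chromosome 17. A match of letters is a description of the sequence, and none of these sites was measured in the cells.

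Camk2d itself was checked first. It was at 141, 134, 135, 129 and 123 TPM in the intact samples and at 25.5, 19.8, 23.2, 29.8 and 25.2 TPM in the KO samples, without overlap. The log2 difference was -2.39 (SE 0.09; adjusted p = 1.2e-06, limma with Benjamini-Hochberg adjustment over 20000 genes). In this fit Camk2d was the 1 gene of 20000 (0.005%) past an adjusted p of 0.05. The paper's edgeR test on expected counts called further transcripts, gasdermin genes among them. Summed over 10 markers, principal cell transcripts held 5960 to 7769 TPM in intact and 3488 to 6130 TPM in KO samples, and Aqp2, the vasopressin-regulated water channel, was at 5502, 3773, 4084, 4338 and 3889.9 TPM in intact and 1281, 1618, 3789, 2879.7 and 2856 TPM in KO samples. Without Aqp2, the other 9 principal cell markers summed to 2187 to 2267 TPM in intact and 2019 to 2341 TPM in KO samples, and 4 of the 9 had the higher mean in KO samples. Markers of other cells summed to at most 49.3 TPM (intercalated cell), 15.04 TPM (proximal tubule) and 9.38 TPM (immune) in any sample, and Umod, Slc12a1, Slc34a1 and Kdr were listed at 0 throughout. The mean of Aqp2 was lower in KO samples, but KO clone 3 lay within the intact range and Aqp2 did not pass the adjusted threshold. The paper also reports no significant decrease of the Aqp2 transcript. In bulk RNA, fewer cells of a type and less RNA per cell cannot be told apart, and the part of Aqp2 in any value below was not tested.

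Proteasome genes were among the abundant transcripts of these cells and their spread over cell lines was small. The 47 members summed to between 11310 and 12189 TPM per sample, 11757 ± 337 TPM in intact (mean ± SD, n = 5) and 11593 ± 220 TPM in KO samples (n = 5), so that the KO mean was 98.6% of the intact mean. By mean level, 22 members ranked among the 1000 most abundant genes and 37 were at 100 TPM or more. Over the 8 cell lines (paired samples averaged), the coefficient of variation had a median of 5.33% among the 47 members. It was 9.28% among 9206 other genes with a mean of at least 10 TPM. Among genes at 50 TPM or more, the medians were 5.19% for 44 members and 8.11% for 4545 other genes. Between the paired samples of an intact clone, members differed by a median of 3.48% (clone 1) and 3.16% (clone 2).

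**Figure D1:**
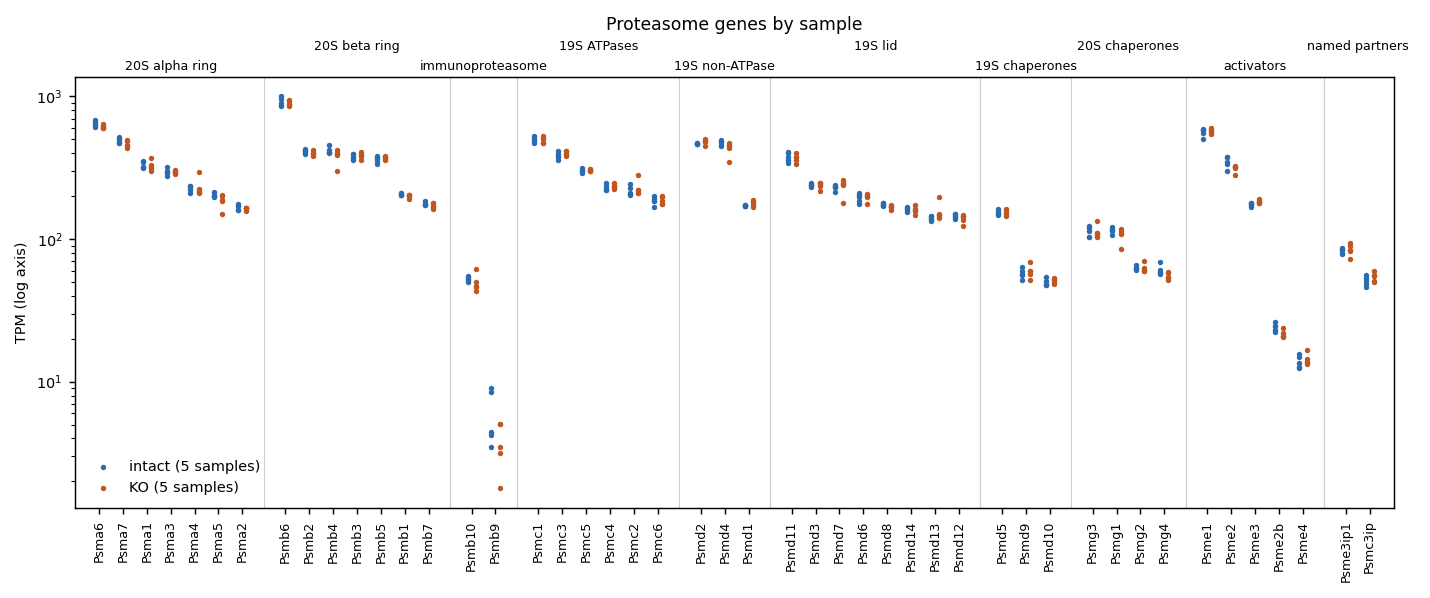
Level of the 47 proteasome genes in each sample, in TPM on a log axis, with genes grouped by their part of the complex and ordered by mean level. Each point is 1 sample (blue intact, orange KO), and in every class most KO points lie within or near the intact points, KO clone 2 standing off for Psmb4 and Psma4, from Psmb6 at about 907 TPM to Psmb9 at about 4.83 TPM.

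Levels followed the parts of the complex only loosely. Mean levels in the 20S alpha ring ran from 166 TPM (Psma2) to 629 TPM (Psma6), in the constitutive beta ring from 174 TPM (Psmb7) to 907 TPM (Psmb6), in the ATPase ring from 187 TPM (Psmc6) to 497 TPM (Psmc1) and in the lid from 142 TPM (Psmd12) to 373 TPM (Psmd11). Subunits that are present in equal copies in the finished particle therefore differed by up to 5.21-fold in mean TPM within 1 ring. Class medians were 296 TPM for the alpha ring, 382 TPM for the beta ring, 269 TPM for the ATPases, 183 TPM for the lid, 86.9 TPM for the 20S assembly chaperones and 58.5 TPM for the 19S assembly chaperones.

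None of the 47 members passed an adjusted p of 0.05 between KO and intact samples in limma, the lowest adjusted p being 0.683. At an unadjusted p under 0.05, 0 members were higher and 1 was lower in KO, against 4.53% and 2.46% of all genes tested. With 1 sample left out at a time, the count ran from 0 (without the second sample of intact clone 1 or the first of intact clone 2) to 3 lower (without KO clone 5), and 1 member, Psmd7, was higher without KO clone 1. No member had KO and intact samples without overlap, against 1.2% of all genes for higher and 0.445% for lower. Log2 differences were above 0 in 22 members and below 0 in 25, with a median of -0.0043 beside 0.019 for all 20000 genes. After rescaling by median ratios these medians were -0.033 and 0.00045. With 1 sample left out at a time, the members' median lay between -0.027 (without KO clone 2) and 0.0093 (without KO clone 1), and it was also above 0 without either sample of intact clone 1. The differences ran from -0.54 (Psmb9) to 0.14 (Psmd13). The 95% confidence interval lay within 0.25 of 0 on the log2 scale in 36 members and within 0.5 in 46, the exception being Psmb9. It counts the 10 samples as independent. Data were simulated with 200 changed genes of at least 50 TPM. This fit then recovered 30.0% of changes of 0.3, 79.0% of changes of 0.5 and 99.0% of changes of 1 on the log2 scale. Simulated samples were independent, and the changed genes were drawn from all genes at that level, not from the members. The rates need not hold for the members in these samples, where differences of 0.3 and less could have been missed. In the 2-sided exact permutation test over samples, 3 of the 47 members had an unadjusted p under 0.05 (Psme3 higher, Psmd8 and Psme2b lower), against 4.89% of all genes for higher and 2.25% for lower. This test exchanges all 10 samples, although 4 of the 5 intact samples are pairs from 1 clone each. With 1 value per cell line (5 KO against 3 intact lines, a setting for which this test was added after seeing the data) none of the 47 was below 0.05, the exact permutation p being 0.107 for Psme3, 0.0536 for Psmd8 and 0.0714 for Psme2b.

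**Figure D2:**
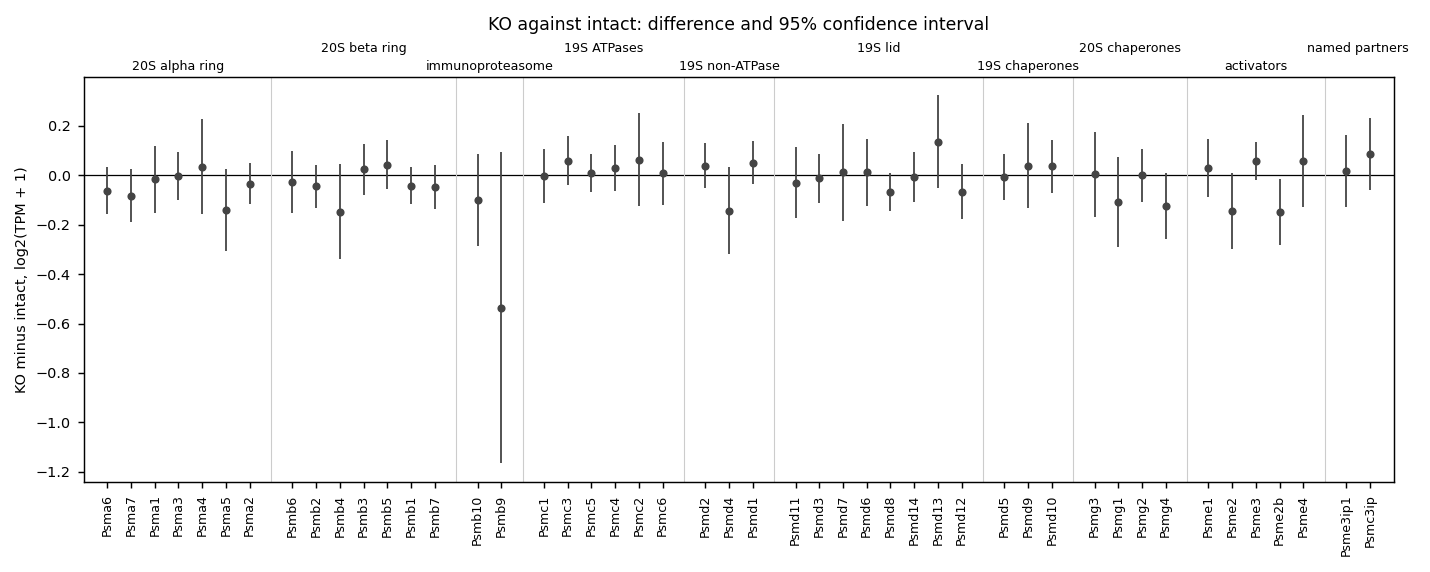
Difference between KO and intact samples for each of the 47 genes, as log2(TPM + 1) in KO minus intact, with the 95% confidence interval from limma (5 against 5 samples). Intervals cross 0 in 46 genes, Psme2b being the exception, and the widest interval is that of Psmb9 (-1.17 to 0.09).

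Of the alpha ring, which gates the entrance to the core, 1 of 7 genes had a difference above 0 and 6 below, with a median of -0.034. Psma6, the most abundant, was at 633, 679, 663, 608 and 632 TPM in intact and 600.4, 605, 620.0, 613 and 639 TPM in KO samples. Psma2, the least abundant, was at 161, 176, 171, 161 and 170.5 TPM in intact and 166, 164, 166, 157 and 165 TPM in KO samples. Both sets of values overlapped, with differences of -0.06 (p = 0.0952) and -0.03 (p = 0.278, exact permutation test, 2-sided). The ring as a whole summed to 2359 ± 97.9 TPM in intact samples and 2285 TPM on average in KO samples.

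The constitutive beta ring held the most abundant member and the active sites. Psmb6, the caspase-like subunit, was at 859.8, 999.7, 954, 868 and 899 TPM in intact and 891, 851, 925, 877 and 942 TPM in KO samples. Psmb5, the chymotrypsin-like subunit, was at 335, 384, 367, 370.5 and 355 TPM in intact and 375, 378, 366, 359 and 385 TPM in KO samples. Psmb7, the trypsin-like subunit and the least abundant of the ring, was at 172, 186, 177, 174 and 176 TPM in intact and 168, 161, 171, 178 and 179 TPM in KO samples. Intact and KO samples overlapped in each. Their log2 differences were -0.03 (SE 0.06), 0.04 (SE 0.04) and -0.05 (SE 0.04), with p-values of 0.571, 0.31 and 0.206 in the exact permutation test. The sign for Psmb6 turned under quantile normalization and without 1 sample of intact clone 1. The difference of Psmb5 was 0.014 without the parental sample and 0.014 after rescaling by median ratios, and that of Psmb7 became -0.027 without KO clone 2 and -0.011 without KO clones 1 and 2. The same rescaling moved Psmb6 to -0.058 and Psmb7 to -0.076, further from 0. The 95% intervals (-0.15 to 0.10, -0.06 to 0.14 and -0.14 to 0.04) bound how far each could have moved.

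In the 19S base, 5 of 6 ATPase genes had a difference above 0, with a median of 0.019, equal to the median of all genes at this precision. Psmc1 was at 496, 508, 528, 472 and 485 TPM in intact and 474, 468, 506, 509.7 and 526 TPM in KO samples, and Psmc6, the least abundant ATPase, was at 168, 191, 202, 185 and 186 TPM in intact and 186, 176, 177, 201 and 196 TPM in KO samples. Among the non-ATPase subunits, the scaffold Psmd2 was at 464, 463, 465, 472 and 475 TPM in intact and 478, 500.4, 446, 492 and 488 TPM in KO samples. Psmd1, its partner, was at 173, 169, 172, 174 and 170.4 TPM in intact and 167, 187, 172, 183 and 181 TPM in KO samples. Psmd1 and Psmd2 were close to constant in intact samples and more spread among the KO clones, and neither differed beyond that spread (p = 0.143 and 0.246, exact permutation test). Psmd4, the ubiquitin receptor, had a difference of -0.14 (SE 0.08) that moved to -0.065 without KO clone 2, as described by cell line below.

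In the lid, 3 of 8 genes were above 0 and 5 below, with a median of -0.0094. Psmd11 was at 377, 399, 411, 339 and 359 TPM in intact and 334, 358, 377, 399 and 376 TPM in KO samples. Psmd12, the least abundant lid gene, was at 138, 144, 145, 149.6 and 149 TPM in intact and 124, 144, 135, 147 and 143 TPM in KO samples. Psmd8 was at 175, 179.8, 179, 174 and 171 TPM in intact and 167, 172, 169.9, 159 and 169 TPM in KO samples, where 4 of the 5 KO values were below every intact value and the KO clone 2 value lay within the intact range. The difference of Psmd8 was -0.07 (95% confidence interval -0.15 to 0.01; exact permutation p = 0.0159, 2-sided; limma p = 0.0711, unadjusted). Sem1, the small lid subunit that the name rule does not reach, was at 117, 131, 126, 126 and 124 TPM in intact and 92.2, 106.4, 122, 112 and 117 TPM in KO samples and differed by -0.19 (SE 0.07; exact permutation p = 0.0159; adjusted p = 0.651, limma).

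Assembly chaperones were less abundant than most subunits they place. Of the 20S chaperones, which pair up to build the alpha ring, Psmg3 was at 114, 104, 103, 119 and 123 TPM in intact and 111, 135, 107, 103 and 109.6 TPM in KO samples. Psmg4, the partner of PSMG3, was at 57.2, 60.7, 69.1, 58.3 and 57.4 TPM in intact and 54.2, 53.7, 58.0, 52.0 and 59.1 TPM in KO samples, with a difference of -0.12 (SE 0.06; exact permutation p = 0.0714), or -0.076 without the second sample of intact clone 1. The values of Psmg4 overlapped between the groups. Of the 19S chaperones, Psmd5 was at 158, 151, 151, 148 and 162 TPM in intact and 144, 162, 157, 152 and 150.3 TPM in KO samples. Psmd10 was at 47.6, 50.97, 47.6, 54.2 and 48.4 TPM in intact and 52.2, 53.5, 48.3, 50.0 and 51.3 TPM in KO samples. Differences of the 3 chaperones of the 19S base lay between -0.0082 and 0.038 on the log2 scale. Pomp, the maturation factor of the 20S core that the name rule does not reach, was at 183, 193, 186, 206 and 229 TPM in intact and 194, 247, 184, 182 and 183 TPM in KO samples.

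Among the activators, transcripts of the PA28 ring were abundant and the PA200 cap was rare. Psme1 was at 502, 558, 590.0, 577 and 586 TPM in intact and 549, 577, 584, 596 and 560.4 TPM in KO samples. Psme2, the other PA28 subunit, was at 298, 375, 377, 346 and 337 TPM in intact and 314, 282, 326, 321 and 319 TPM in KO samples. The parental line had the lowest intact value of both. Psme2 differed by -0.15 (SE 0.07; exact permutation p = 0.0952) and Psme1 by 0.03 (SE 0.05), the sign of Psme1 turning when the parental line was left out. As a share of Psme1, Psme2 stood at 59.3%, 67.3%, 63.9%, 60.1% and 57.5% in the intact samples and at 57.2%, 48.9%, 55.8%, 53.9% and 56.9% in the KO samples. These shares did not overlap, the nearest being 57.5% in an intact clone 2 sample and 57.2% in KO clone 1, and were noticed in the data, so no test is given.

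Psme2b, a near-copy of Psme2 on chromosome 11, was the 1 member below an unadjusted p of 0.05. It was at 22.4, 24.8, 26.1, 24.5 and 22.9 TPM in intact and 21.0, 21.0, 23.9, 21.9 and 20.6 TPM in KO samples, with the KO clone 3 value inside the intact range. The difference was -0.15 (95% confidence interval -0.28 to -0.01; limma p = 0.0337, adjusted p = 0.683; exact permutation p = 0.0317, 2-sided). The unadjusted call was lost with 1 value per cell line, with cell line as a random effect, and in 6 of the 10 fits that left out 1 sample (either sample of intact clone 1, the first of intact clone 2, or KO clone 1, 2 or 5). Psme2b shares 69.3% of its 50-base windows with other genes in GENCODE M21, mostly with Psme2, and Psme2 shares 59.3% of its own in turn. The level of Psme2b was 6.48% to 7.53% of that of Psme2 in every sample, so reads of Psme2 assigned to its copy cannot be told apart from expression of Psme2b. Of the 46 members with a coding transcript under their symbol in that annotation, 12 shared over 10% of their windows with another gene, among them Psmb5 (57.1%), Psmb3 (55.8%) and Psma5 (54.5%), and 25 shared none.

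Psme3, the nuclear PA28 gamma activator, was at 180.2, 173, 168, 177 and 179.9 TPM in intact and 179, 180.1, 181, 189 and 183 TPM in KO samples, a difference of 0.06 (SE 0.03; exact permutation p = 0.0397, 2-sided; limma p = 0.129, unadjusted). After rescaling by median ratios the difference was 0.028. Psme4, which encodes PA200, was the least abundant activator at 15.6, 13.5, 14.8, 12.5 and 12.7 TPM in intact and 13.4, 13.8, 14.3, 16.7 and 13.8 TPM in KO samples. Both activators overlapped between the groups, and Psme4 was highest in KO clone 4. Psmf1, an inhibitor of the core, and Adrm1, a ubiquitin receptor of the base, stand outside the name rule. Psmf1 was at 68.1, 67.9, 78.2, 66.8 and 70.6 TPM in intact and 76.7, 66.5, 71.3, 78.5 and 74.5 TPM in KO samples. Adrm1 was at 109.6, 104, 104, 102 and 103 TPM in intact and 117, 105, 102, 93.4 and 107 TPM in KO samples, with a difference of 0.0040.

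The 3 immunoproteasome subunits were unlike one another in level. Psmb8 fell outside the level rule, with 0 TPM in 7 samples, 0.40 and 0.08 TPM in the intact clone 2 samples and 0.09 TPM in KO clone 2. Psmb11, the thymus subunit, reached at most 0.01 TPM, and Psma8, the testis alpha subunit, was listed at 0 in all 10 samples. Psmb9 was the member nearest to the lower limit of the level rule, with a mean of 4.83 TPM. Psmb10 had a mean of 51.1 TPM. Set against its constitutive counterpart, Psmb10 was at 25.9% to 34.5% of Psmb7 over the 10 samples, whereas Psmb9 was at 0.201% to 1.04% of Psmb6 and Psmb8 at no more than 0.108% of Psmb5.

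Psmb9 was at 4.43, 3.5, 4.24, 9.07 and 8.50 TPM in intact samples and at 1.79, 3.15, 5.03, 3.51 and 5.08 TPM in KO samples. Both intact clone 2 samples stood above all others and KO clone 1 stood below all others, while the remaining intact and KO samples overlapped. The mean was 5.95 ± 2.62 TPM in intact and 3.71 ± 1.38 TPM in KO samples (SD, n = 5 each), with a difference of -0.54 (SE 0.28; 95% confidence interval -1.17 to 0.09; exact permutation p = 0.167). Without KO clones 1 and 2 the difference was -0.26. At this level, log2(TPM + 1) understates a ratio. Over the 8 cell lines the coefficient of variation of Psmb9 was 46.1%, the largest of the 47 members, ahead of Psmd13 (12.9%) and Psma4 (11.9%).

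Psmb10 was at 54.1, 52.7, 52.0, 49.7 and 55.1 TPM in intact and 43.4, 45.8, 49.6, 47.0 and 61.6 TPM in KO samples. The KO samples spanned more than the intact ones, with KO clone 5 above and the other 4 KO clones below every intact sample, if only just for KO clone 3 (49.62 TPM, against 49.66 TPM in the lowest intact sample). The difference was -0.10 (95% confidence interval -0.28 to 0.09; exact permutation p = 0.302), and it became -0.18 without KO clone 5, -0.056 without KO clone 1 and -0.0085 without KO clones 1 and 2. None of these passed the adjusted threshold.

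Tap1, across the short interval printed above for Psmb9, was at 7.73, 10.9, 9.86, 10.5 and 10.9 TPM in intact and 5.70, 8.98, 10.4, 10.5 and 8.96 TPM in KO samples. Tap2, its partner in the peptide transporter, was at 16.4, 18.9, 18.4, 21.7 and 20.04 TPM in intact and 11.2, 13.6, 19.4, 18.4 and 18.2 TPM in KO samples. KO clone 1 had the lowest value of Psmb9, Tap1 and Tap2, but the intact clone 2 samples, highest for Psmb9, were within the range of the other samples for Tap1, while for Tap2 they were the highest of the 10 samples (next 19.4 TPM, KO clone 3). Of 7 genes of antigen presentation and its interferon control (Tap1, Tap2, Tapbp, B2m, Erap1, Nlrc5 and Irf1), 0 passed an unadjusted p of 0.05, 6 had a difference below 0 and Erap1 had one above, with a median of -0.14. Nlrc5, which drives the class I pathway, was at most 0.59 TPM. Immune cell markers summed to 4.24 to 5.72 TPM in intact and 3.64 to 9.38 TPM in KO samples.

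**Figure D3:**
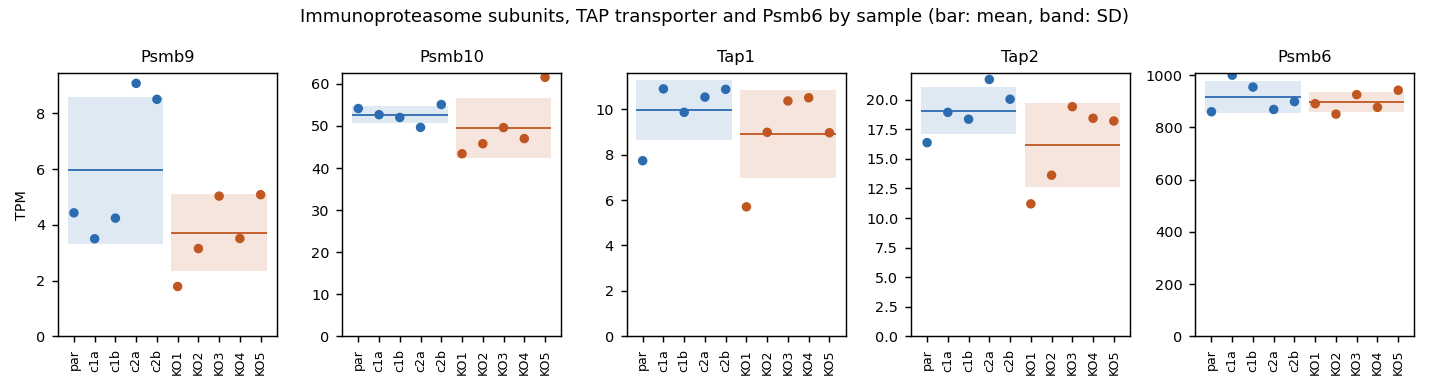
Levels of Psmb9, Psmb10, Tap1, Tap2 and, for scale, Psmb6 in each sample, in TPM on linear axes that start at 0. Points are samples (par, parental line; c1a and c1b, intact clone 1; c2a and c2b, intact clone 2; KO1 to KO5, KO clones), bars are group means and bands are 1 SD (n = 5); Psmb9 is at 9.07 and 8.50 TPM in intact clone 2 and at 1.79 TPM in KO clone 1.

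Genes around the proteasome were read from the same fit as a list of 35 tested genes (Paaf1, also listed, was not analysed here). At an unadjusted p under 0.05, 2 were higher and 1 was lower, shares near those of all genes given above (4.53% and 2.46%), and 0 passed the adjustment over all genes. Uba1, the main ubiquitin-activating enzyme, was at 119, 117, 113, 114 and 113 TPM in intact and 121, 134, 122, 126 and 124 TPM in KO samples, higher in every KO sample (difference 0.12, SE 0.04; exact permutation p = 0.00794; adjusted p = 0.568, limma). Nploc4, an adaptor of the segregase VCP, was at 90.9, 85.1, 84.1, 77.6 and 80.3 TPM in intact and 96.4, 87.9, 89.7, 93.6 and 93.0 TPM in KO samples (difference 0.14, adjusted p = 0.618 in limma). Of 14 shuttle factors, deubiquitinases and VCP adaptors, 11 had a difference above 0, with a median of 0.046, and Nploc4 was the 1 below an unadjusted p of 0.05. The lower gene of the 35 was Sem1, given above. With 1 value per cell line the unadjusted limma calls of Nploc4 and Sem1 were lost and that of Uba1 was not, and without KO clones 1 and 2 the difference of Sem1 was -0.093. Nploc4 overlapped between the groups and Uba1 did not, a separation found in 1.2% of all genes in that direction. The 5 regulators of proteasome genes (Nfe2l1, Nfe2l2, Ddi2, Ngly1 and Akirin2) had differences between -0.0063 and 0.076, with Nfe2l1 at 169, 157, 158, 145 and 142 TPM in intact and 184, 111, 154, 174 and 154 TPM in KO samples. Of the genes for ubiquitin itself, Ubb was at 872, 876, 909, 874 and 868 TPM in intact and 950.5, 840.3, 857, 823 and 854 TPM in KO samples.

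The name-only members Psme3ip1 and Psmc3ip gave similar pictures. Psme3ip1 was at 79.2, 80.2, 83.7, 86.3 and 85.6 TPM in intact and 72.3, 94.1, 82.4, 89.5 and 83.2 TPM in KO samples. Psmc3ip was at 53.4, 56.2, 50.6, 46.1 and 48.8 TPM in intact and 56.0, 59.4, 50.0, 54.6 and 50.6 TPM in KO samples. Intact and KO values overlapped in both.

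By cell line, a few subunit genes stood far from the rest in single clones, and in most of these cases the neighbouring genes on the chromosome had moved with them. Each member was expressed as its log2(TPM + 1) in a line minus its median over the 8 lines. Of 376 such deviations (47 members in 8 lines), 13 exceeded 0.25 in either direction, in 11 members. KO clones 1 and 2, both listed with the exon 8 guide, held 10 of the 13. Among genes with a mean of at least 10 TPM, 2.72% of the values of 46 members passed 0.25, beside 10.3% of those of 9205 other genes. Of these values past 0.25, KO clones 1 and 2 held 80% for the members and 61.02% for the other genes. At 50 TPM or more, 2.84% of the values of 44 members and 7.98% of those of 4544 other genes passed 0.25. There KO clones 1 and 2 held 80% for the members and 73% for the other genes. The same deviation was then taken as a median over the up to 40 nearest genes with a mean of at least 10 TPM around each member, proteasome genes and Camk2d left out, in the gene order of GENCODE M21. In 9 of the 13 cases the neighbours deviated by more than 0.15, and in all 9 with the same sign as the member. No matching count is given for other genes past 0.25, so this cannot be called particular to proteasome genes. Members on 1 chromosome can share neighbours, and the cases are not independent.

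KO clone 2 held most of them. Psmb4, a beta ring subunit, was at 411, 456, 399, 420.1 and 407 TPM in intact and 420.2, 298, 393, 385 and 403 TPM in KO samples. Psma5, an alpha ring subunit, was at 201, 214, 203, 196 and 201 TPM in intact and 185, 150.2, 199, 188 and 204 TPM in KO samples. Psmd4 was at 486, 483, 495, 455 and 451 TPM in intact and 447, 345, 453, 436 and 475 TPM in KO samples. In these 3 genes of chromosome 3, KO clone 2 was the lowest of all 10 samples. It deviated by -0.45, -0.40 and -0.39, and the neighbours of each by -0.41, -0.31 and -0.38. Camk2d is on chromosome 3 as well. Chromosome 3 genes with a mean of at least 10 TPM had a median deviation of 0.0065, 0.0025, 0.0268 and -0.0045 in KO clones 1, 3, 4 and 5. Whether the edit of Camk2d has a part in the lower values of KO clone 2 was not tested.

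In the other direction, Psma4 on chromosome 9, an alpha ring subunit, was at 228, 234, 234, 212 and 219.8 TPM in intact and 213, 295, 218, 211 and 225 TPM in KO samples. Psmc2, an ATPase gene on chromosome 5, was at 205, 211, 203, 228 and 242 TPM in intact and 219, 281, 209, 211 and 222 TPM in KO samples. KO clone 2 was the highest of the 10 samples in both and also for Psmg3 on chromosome 5. Its deviations were 0.41 (neighbours 0.37), 0.39 (neighbours 0.33) and 0.29 (neighbours 0.31). Psmd13, a lid gene on chromosome 7, was at 146, 144, 141, 133 and 137 TPM in intact and 147, 197, 143, 141 and 149 TPM in KO samples, and in KO clone 2 it deviated by 0.44, more than its neighbours (0.19). Of the 8 members whose neighbours deviated by more than 0.15 in KO clone 2, all 8 deviated with the same sign, Psmd9 on chromosome 5 being the eighth (0.21).

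KO clone 1 gave the same picture on chromosome 8. Psmd7, a lid subunit, was at 214, 231, 232, 233 and 238 TPM in intact and 179.6, 259, 239.5, 242 and 246 TPM in KO samples, and KO clone 1 was the lowest (-0.40, neighbours -0.39). The other members on that chromosome, Psmb10 (-0.23, neighbours -0.29) and Psme3ip1 (-0.19, neighbours -0.27), were lower there too. In KO clone 4, Psmg1, a 20S assembly chaperone on chromosome 16, was at 84.9 TPM against 107, 122, 116, 113 and 118 TPM in intact samples, and its 31 neighbours deviated by -0.31 while the median of all chromosome 16 genes was -0.0004. The 4 cases not shared with neighbours were Psmb9 in KO clone 1 (-0.88), KO clone 2 (-0.31) and intact clone 2 (0.93), and Psmb10 in KO clone 5 (0.27).

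**Figure D4:**
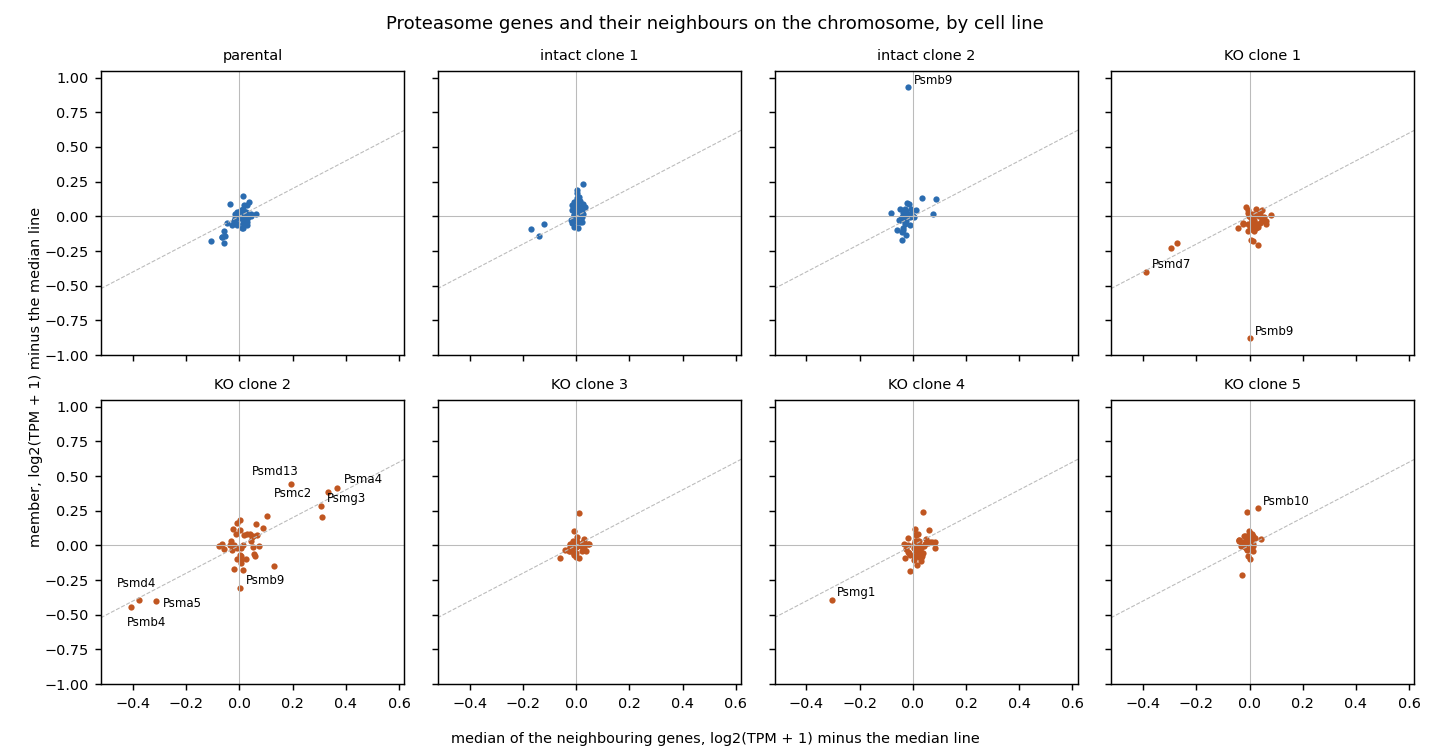
Deviation of each of the 47 proteasome genes in a cell line (vertical axis, log2(TPM + 1) minus the median over 8 lines) against the median deviation of its neighbours on the chromosome (horizontal axis), 1 panel per line. The dashed line marks equal values and members past 0.25 are named; in KO clone 2 the 3 genes of chromosome 3 sit near -0.4 on both axes and Psma4, Psmc2 and Psmg3 near 0.3 to 0.4 on both.

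On chromosomes 3, 5, 8 and 9 the shift showed in the median of the whole chromosome. Over all genes with a mean of at least 10 TPM, the median deviation in KO clone 2 was -0.32 on chromosome 3 (457 genes), 0.33 on chromosome 5 (613 genes) and 0.44 on chromosome 9 (516 genes), and in KO clone 1 it was -0.33 on chromosome 8 (530 genes) and 0.21 on chromosome 19 (349 genes), which holds no member. Of the other 155 of 160 medians of a chromosome in a line, the furthest from 0 was -0.12 (chromosome 5 in intact clone 1). Across the 47 members, the correlation between member and neighbours was r = 0.80 (Spearman's rho = 0.50) in KO clone 2 and r was between 0.21 and 0.63 in the other lines (rho between 0.13 and 0.48, the latter in intact clone 2), so that by rank KO clone 2 did not stand apart. These are given as a description, since genes of 1 chromosome share their library and are not independent. The SD of the members' deviations in KO clone 2 was 0.187, and 0.111 once the median of the neighbours was subtracted. In KO clone 3 the SD was 0.052 without subtraction. DNA of these clones was not analysed here, and the cause of the shifts was not tested.

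**Figure D5:**
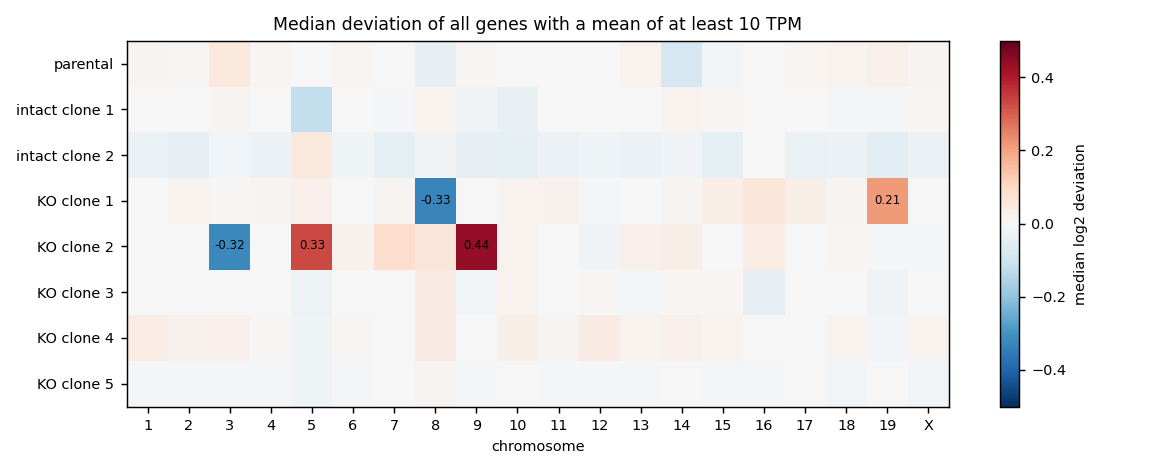
Median deviation of all genes with a mean of at least 10 TPM, by chromosome (columns) and cell line (rows), on a log2 colour scale; medians past 0.15 are written in their cells. The 5 written values all belong to KO clones 1 and 2, on chromosomes 3, 5, 8, 9 and 19.

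These clones bear on the comparison of KO with intact samples. Without KO clones 1 and 2, 0 of 47 members passed the adjusted threshold, as with them, and the count of members without overlap went from 0 to 3 with fewer values left to separate, namely Psmd7 and Psme3 (higher) and Psmd8 (lower). With these 3 KO and 5 intact samples, 3.58% of all genes were without overlap and higher and 1.95% were without overlap and lower. The median difference was -0.0079 without them. Psma5, Psmb4 and Psmd4, all on chromosome 3, had differences of -0.14, -0.15 and -0.14 with all samples and of -0.068, -0.064 and -0.065 without KO clone 2. Psmd13, with the largest positive difference (0.14), was at 0.049 without that clone.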

How the data were processed

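Reads from amplified full-length cDNA (50-base pairs) were aligned by the authors with STAR (Ensembl annotation), RSEM gave gene levels, and the authors deposited TPM with 2 decimals, 1 column per sample. TPM keep no depth, so depth is unknown and no counting error is given. The authors' edgeR test on expected counts was not repeated. Groups and clone numbers came from the labels, and the exon targeted in each KO clone from the study's supplementary list of mutations, matched by clone number. Paired samples of an intact clone had identical values in 1.37% and 1.46% of genes with a mean of at least 1 TPM, and each was counted as a sample.

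Genes ranking in the top 20000 by mean TPM were tested as log2(TPM + 1) with limma 3.58.1 (R 4.3.3, intensity trend, Benjamini-Hochberg, threshold 0.05), 5 KO against 5 intact samples, after a run on simulated data. Neighbours, promoters and shared windows were computed in Python 3.11.15. The files' annotation is later than GENCODE M21 (GRCm38), which gave gene order and transcripts, and no coordinate was taken from the files.

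Members and lists were chosen with earlier results of these data known. Named genes are Camk2d, members below an unadjusted p of 0.05, immunoproteasome subunits and their counterparts, activators, the highest and lowest of each class, those next to 1 TPM, the 3 most variable over lines, related genes below 0.05 and the 4 other proteasome parts. Psmd8, the genes named for deviating in a line and the remaining related genes with values were added after their values were seen. A further listed gene is not reported here.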

Additional observations from a re-analysis of the deposited data

Results flagged for a closer look

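For each of the 47 members, the highest and lowest of the 5 intact and of the 5 KO samples were compared with the nearest other sample. A value stood apart where its gap exceeded 0.71 of the group's range. This held in 11 of 94 groups, where chance alone gives about 1 in 20 for independent samples and genes. All 11 were KO groups, that is 23.4% of the 47 members in KO and 0 in intact samples. Among 9205 other genes with a mean of at least 10 TPM the shares were 13.2% in KO and 4.57% in intact samples, and whether the members' share differs from that of other genes was not tested. The groups are not alike in this respect, since each KO sample is a clone of its own while 4 of the 5 intact samples are pairs from 1 clone each, so that a level particular to an intact clone comes with its partner. Genes on 1 shifted chromosome are not independent of each other either.

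KO clone 2 stood apart in 7 of them. It was high for Psmc2 at 281 TPM (next KO value 222 TPM), for Psmd13 at 197 TPM (next 149 TPM), for Psma4 at 295 TPM (next 225 TPM), for Psmg3 at 135 TPM (next 111 TPM) and for Psmg2 at 69.7 TPM (next 62.4 TPM). It was low for Psmb4 at 298 TPM (next 385 TPM) and for Psme2 at 282 TPM (next 314 TPM). KO clone 1 was low for Psmd7 at 179.6 TPM (next 239.5 TPM). KO clone 4 was low for Psma2 at 157 TPM (next 164 TPM) and for Psmg1 at 84.9 TPM (next 109 TPM), and high for Psme4 at 16.7 TPM (next 14.3 TPM). For Psmc2, Psmd13, Psma4, Psmg3, Psmb4, Psmd7 and Psmg1 the neighbouring genes on the chromosome deviated by more than 0.15 on the log2 scale in the same clone and with the same sign. For Psmg2, Psme2, Psma2 and Psme4 they did not deviate by as much.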

How the results depend on the processing

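The Camk2d difference stayed between -2.46 and -2.31 in all 20 alternatives, with an adjusted p of at most 0.00029. No member passed the adjusted threshold in any alternative (lowest adjusted p 0.524), and 1 to 2 genes passed over the whole table: 2 with a pseudocount of 0.1, and 1 to 2 when a sample was left out. Of 380 values of 19 named genes, 377 kept their direction and side of the threshold. The sign of Psmb6 turned under quantile normalization (0.0045) and without intact sample 2, its range over left-out samples being -0.051 to 0.0032, and that of Psme1 without the parental sample, with a range of -0.011 to 0.047. The cause was not tested. The median difference of the members was -0.033 after rescaling by median ratios. Members without overlap between KO and intact samples numbered 1 after rescaling by median ratios, under quantile normalization and with 1 value per cell line (Psmd8 each time), where 1.49%, 1.37% and 3.36% of all genes did not overlap. They numbered 0 to 2 when a sample was left out (2.17% to 3.29% of all genes) and 3 without KO clones 1 and 2 (5.53%), an alternative chosen after seeing the data. Which member it was depended on the sample left out: Psme2 without intact sample 1, Psmd8 without intact sample 5 or KO clone 2, Psmd7 without KO clone 1, Psmd2 and Psme2b without KO clone 3 and Psmb10 without KO clone 5.

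Members below an unadjusted p of 0.05 numbered 1 with the settings reported (Psme2b), 0 with 1 value per cell line or with cell line as a random effect, 3 under quantile normalization (all lower, where 2.995% of all genes were below this p and lower) and 4 after rescaling by median ratios (Psmd8, Psmg4, Psme2 and Psme2b, all lower, where 3.38% of all genes were). When a sample was left out the count was 0 without intact sample 3 or 4, 2 without intact sample 1 (Psme2 and Psme2b), 3 without KO clone 5 (Psma5, Psmg4 and Psmb10, all lower, where 2.51% of all genes were), and 1 in the other 6 cases: Psme2b without intact sample 5 or KO clone 3 or 4, Psmb9 without intact sample 2, Psmd7 (higher) without KO clone 1 and Psmd8 without KO clone 2. No paired analysis was possible because the replicate numbers of the intact and KO samples name unrelated lines. Depth is unknown in TPM, so no statement on detection of Psmb8, Psmb11 or Psma8 goes beyond the listed values.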
